A study of Mus musculus with 6 samples.

Results

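Deubiquitinases are proteases that take ubiquitin off proteins, and the genes described here are 67 of the 55421 rows of the deposited table. They were chosen by name among protein-coding rows (symbols that begin with Usp and a digit, Otud, Otub or Uchl, with 3 of the 70 matching genes not analysed here), a rule on names that uses no measured value. Of the 67 genes, 53 carry USP names, 10 belong to the OTU family and 4 to the UCH family. The SFR KO libraries (n = 3) and the wildtype libraries (n = 3) hold total RNA of GFP-positive spleen cells, labelled germinal centre B cells, sorted on day 9 after immunisation with the hapten-protein conjugate NP(18)OVA in alum. SFR KO mice lack the SLAM family receptor genes between intron 1 of Cd244 and exon 8 of Slamf6. Mice of both genotypes are on a C57BL/6 background and carry the AID-GFP reporter, so that the sort selects cells in which the reporter of the antibody-mutating enzyme AID is active. The labels do not state that each library is a separate mouse, and p-values therefore measure the spread between these libraries. In bulk RNA, fewer cells of a type and less RNA per cell cannot be told apart.

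Ubiquitin is attached to proteins singly or in chains, and marks them for the proteasome, for relocation or for signalling. USP, OTU and UCH enzymes are cysteine proteases that reverse this mark. USP enzymes form the largest family, OTU enzymes often prefer chains of particular linkages, and UCH enzymes act mostly on ubiquitin with short attached peptides or within the proteasome and chromatin complexes. In B cells, deubiquitinases are known for restraining NF-kB signalling, for tuning p53 and for DNA repair during class switching and hypermutation. Names are not always a guide to activity in this family. Usp39 encodes a spliceosome protein without protease activity, and Usp6nl encodes a GTPase-activating protein named for its likeness to the start of another USP protein.

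The whole series can be summarised briefly. Between 28269310 and 33053024 reads per library were assigned to genes. The 7 deleted SLAM genes held between 0 and 30 reads each in the SFR KO libraries together, against 154 to 16589 reads in the wildtype libraries together. All 10 germinal centre B cell markers were present, with a summed level of 326828 to 339425 normalized reads in SFR KO libraries and 319133 to 323964 in wildtype libraries. Summed T cell markers were at 616.8 to 788.3 normalized reads in SFR KO and 312.8 to 625.3 in wildtype libraries, neutrophil markers at 214.6 to 1015 and 373.8 to 3194, macrophage markers at 752.1 to 1818 and 794.3 to 2104, and red cell markers at 1203 to 3276 and 1070 to 6692, none of these lists being wholly at 0. Resting B cell markers were at 8200 to 15727 normalized reads in SFR KO and 13095 to 17330 in wildtype libraries, and plasma cell markers at 31040 to 32128 and 28099 to 28945. The genotypes did not overlap for the germinal centre B cell and plasma cell lists, both higher in SFR KO libraries. No marker of any list was called in the main test (limma, described below), the only one looked up for them. The part of these levels in the results was not tested.

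Otud1 was the 1 member whose level differed between genotypes in the test over all genes. Limma, a linear model on the log2 scale with a Benjamini-Hochberg threshold of 0.05, called 1 of 55 tested members against 0.465% of 13562 tested genes (0.155% higher and 0.31% lower in SFR KO). DESeq2, a count model, also called Usp21, Usp10 and Usp24, all lower. For Otud1, Usp21 and Usp24 the bases around the start site are shown here, 250 before it and 50 after it, as listed by RefSeq on GRCm38.p6. Capitals mark matches to the motifs searched on both strands, the GC box GGGCGG, the CCAAT box CCAAT, the TATA box TATAAA, the E box CACGTG, the ETS core CCGGAAG, the CRE TGACGTCA and the NRF1 motif.
Otud1 (chr2:19657481-19657780, plus strand): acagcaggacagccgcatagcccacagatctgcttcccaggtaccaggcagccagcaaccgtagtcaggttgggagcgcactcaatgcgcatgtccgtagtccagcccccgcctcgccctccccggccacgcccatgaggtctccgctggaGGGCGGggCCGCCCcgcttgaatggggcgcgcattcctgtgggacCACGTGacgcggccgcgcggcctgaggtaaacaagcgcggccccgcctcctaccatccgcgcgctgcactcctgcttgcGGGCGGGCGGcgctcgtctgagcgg
Usp21 (chr1:171287912-171288211, minus strand): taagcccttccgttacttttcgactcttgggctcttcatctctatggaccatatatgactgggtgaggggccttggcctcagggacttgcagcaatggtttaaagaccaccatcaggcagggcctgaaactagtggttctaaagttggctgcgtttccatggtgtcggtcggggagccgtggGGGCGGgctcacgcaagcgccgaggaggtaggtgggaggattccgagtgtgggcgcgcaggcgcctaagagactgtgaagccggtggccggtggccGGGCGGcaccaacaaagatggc
Usp24 (chr4:106315963-106316262, plus strand): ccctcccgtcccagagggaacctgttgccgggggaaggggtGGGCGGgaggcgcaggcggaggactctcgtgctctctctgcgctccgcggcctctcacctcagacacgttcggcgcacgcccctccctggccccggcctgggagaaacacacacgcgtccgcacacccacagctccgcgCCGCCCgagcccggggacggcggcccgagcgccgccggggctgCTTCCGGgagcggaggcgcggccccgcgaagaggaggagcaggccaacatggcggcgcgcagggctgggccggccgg

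These windows are rich in C and G. The Otud1 window was 70.3% GC with 33 CpG pairs, that of Usp21 59.7% with 18, and that of Usp24 76.7% with 39, against a median of 52.7% and 7 over 27025 genes with such a window. Promoters of tested members had a median of 65% GC and 27.5 CpG pairs, from the 44 of 55 that matched by symbol. The Otud1 window held GC boxes from positions -99, -91, 26 and 30 (1 is the start), the last pair overlapping each other, and an E box from position -54. The GC box was found in 32 of 44 member windows (72.7%) and in 35.9% of all windows, and the E box in 7 of 44 (15.9%) and in 7.24%. The CCAAT box stood in 8 member windows (18.2%) against 37.9% of all, the TATA box in 2 (4.55%) against 14.2%, and the ETS core in 9 (20.5%) against 9.12%. The CRE and NRF1 letters were in no member window and in 1.88% and 0.977% of all. The window of Usp10 at its listed start (48.3% GC) held none of these motifs. A match describes letters only, and the share holding each motif stands beside a GC content that differs between member windows and all windows.

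Levels differed far more between members than between genotypes. To compare genes, levels are given as normalized reads per kilobase (kb) of the longest annotated transcript, which understates genes whose longest transcript is not their main one. Of the 67 genes, 58 had a read and 55 reached the mean of 10 normalized reads needed for testing, and for 37 the mean reached 1000. Usp7, which removes ubiquitin from p53 and from its ligase MDM2, stood at the top with 3302 ± 193.5 reads per kb in SFR KO and 3541 ± 237 in wildtype libraries (mean ± SD, n = 3 each, as for all group means here). Usp1, which acts on the DNA repair proteins FANCD2 and PCNA, followed with 1939 ± 89.9 and 1911 ± 89.5 reads per kb. Usp5, which recycles free ubiquitin chains, Usp4 and Usp39 completed the 5 highest USP genes, at 1651 ± 61.8, 1534 ± 65.0 and 1459 ± 76.3 reads per kb in SFR KO libraries and 1687 ± 69.6, 1658 ± 31.7 and 1512 ± 22.9 in wildtype libraries. Usp5 and Usp4 overlapped in both genotypes, and Usp4 and Usp39 in SFR KO libraries, so that these neighbours are not ordered there.

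Among the OTU genes with Otud or Otub names, Otub1 and Otud1 were highest. Otub1, which also inhibits a ubiquitin-conjugating enzyme, stood at 1641 ± 4.32 reads per kb in SFR KO and 1620 ± 29.7 in wildtype libraries. Otud1 stood at 1695 ± 74.1 and 1301 ± 71.5. Thus the leading gene among these was Otud1 in the mean of SFR KO libraries and Otub1 in that of wildtype libraries. In the UCH family Uchl3 stood at 1619 ± 56.0 and 1499 ± 84.1 reads per kb, and Uchl5, a subunit of the proteasome and of a chromatin remodelling complex, at 1188 ± 61.2 and 1214 ± 45.3. Uchl1, known as a neuronal enzyme that human germinal centre B cells also make, was lower at 289.6 ± 51.1 and 237.9 ± 45.4.

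Another 12 genes fell short of testing. Usp50, Usp43 and Usp29 had a mean above 0 but under 10 normalized reads. The remaining 9 had no read in any library, which allows up to 3 of the 186392163 reads of all libraries, or 0.0161 CPM (counting error only). They were Usp13, Usp26, Otud6a, Otud7a and the 5 genes Usp17la to Usp17le on chromosome 7, a family of close copies. Reads of stretches that copies share may not be assigned to either, so for these 5 genes the absence of assigned reads sets no limit on their level.

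**Figure D1:**
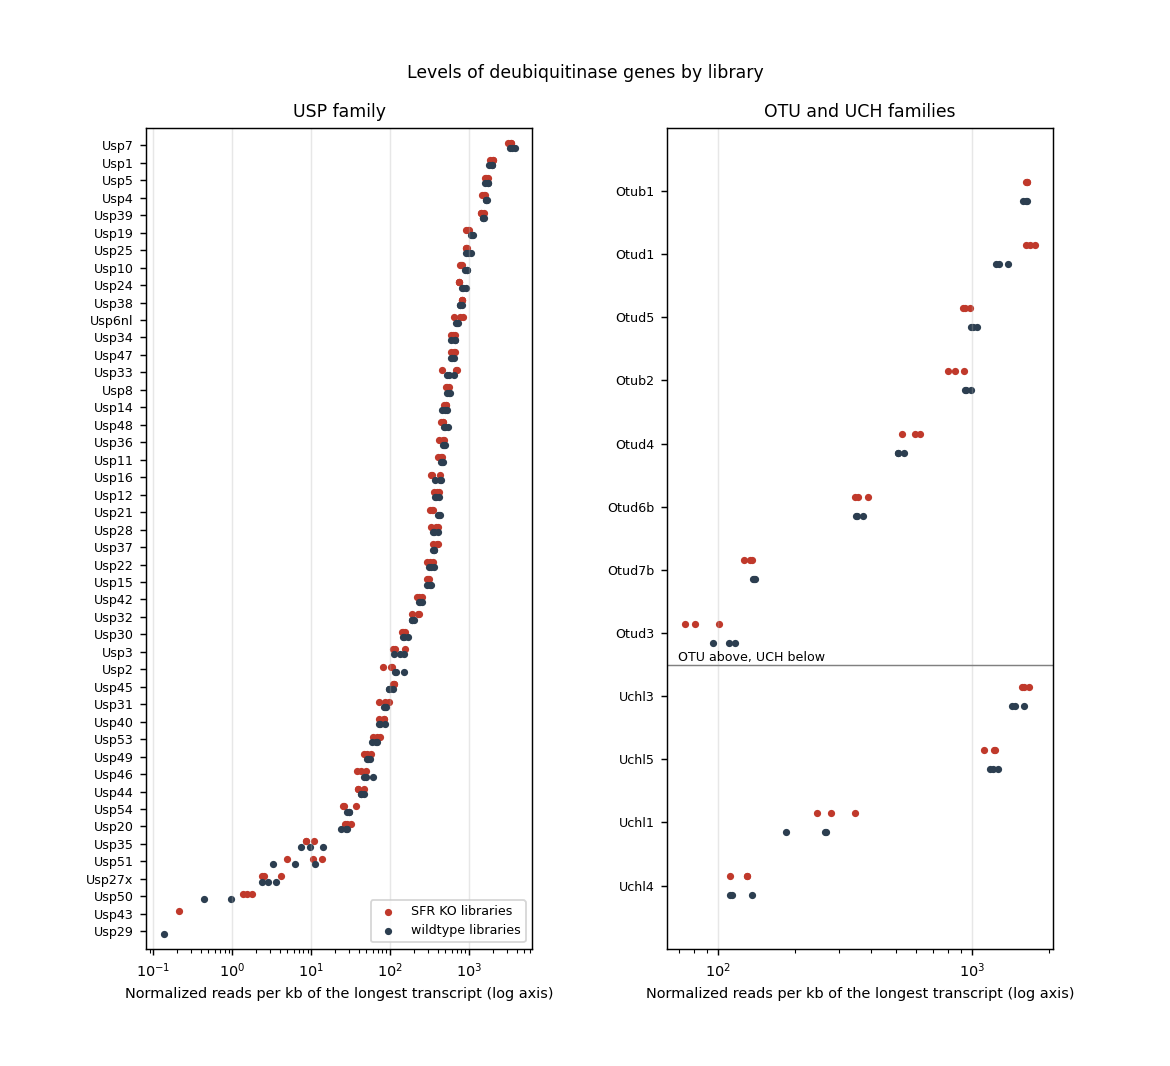
Normalized reads per kb of the longest transcript (log axis) for the 58 genes with a read, 1 point per library, SFR KO (red) above wildtype (dark) in each row; values of 0 are not drawn. Usp7 leads at 3302 reads per kb in SFR KO and 3541 in wildtype libraries, and the 3 SFR KO points of Otud1 lie above its 3 wildtype points.

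Otud1 encodes an OTU deubiquitinase described as a regulator of p53 and of innate immune signalling, and lies on chromosome 2 (chr2:19657752-19660583, GRCm38, plus strand) as 1 exon. It had 4612.4, 5027.3 and 4764.3 normalized reads in SFR KO libraries 1, 2 and 3, against 3628, 3518.2 and 3910.5 in wildtype libraries 1, 2 and 3. Every SFR KO library lay above every wildtype library, with a gap between the lowest SFR KO and the highest wildtype value. The fold was 1.3 and the log2 difference 0.38 ± 0.06 (SE), with a limma adjusted p = 0.0368. It was called by edgeR (adjusted p = 0.0391), as were 0.221% of genes (0.0811% higher), and by DESeq2 (adjusted p = 3.33e-06), and the authors' deposited table gives it a log2 fold change of 0.38. With 1 library left out the log2 difference stayed between 0.35 and 0.43, while limma's adjusted p was 0.19 without SFR KO 2, 0.0924 without SFR KO 3, 0.126 without wildtype 1, 0.126 without wildtype 2 and 0.0836 without wildtype 3. Without SFR KO 1 it was 0.00896. No other gene whose mean reached 10 normalized reads shares exonic bases with Otud1.

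The other OTU genes showed no call. Of 8 tested OTU members, 4 had fitted differences above 0 and 4 below, with a median of -0.02, against -0.00 over all tested genes. Otub2, a relative of Otub1, had 2591.5, 3005.2 and 2757.3 normalized reads in SFR KO and 3209, 3047.4 and 3022.7 in wildtype libraries. All SFR KO values lay below all wildtype values, but by 17.5 reads at the nearest pair, and the log2 difference of -0.15 ± 0.06 missed the threshold (limma adjusted p = 0.278). Otud5, a regulator of interferon induction, and Otud7b, a regulator of NF-kB signalling, likewise had groups that did not overlap, but narrowly. The highest SFR KO and lowest wildtype values were 4194.2 and 4200.3 normalized reads for Otud5 and 1103.6 and 1112.9 for Otud7b. Their log2 differences were -0.09 ± 0.05 and -0.07 ± 0.06 (limma adjusted p = 0.402 and 0.658). Otub1 was steady, with 2837.8, 2827.9 and 2842.5 normalized reads in SFR KO and 2740.7, 2824.8 and 2833.8 in wildtype libraries (log2 0.02 ± 0.05).

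Otud4, Otud3 and Otud6b are named after their values were seen. Otud4, a scaffold and deubiquitinase in DNA alkylation repair, had 3901, 4363.9 and 4576.1 normalized reads in SFR KO and 3968, 3749 and 3741.9 in wildtype libraries, so that SFR KO 1 alone lay within the wildtype range. Its log2 difference was 0.16 ± 0.07 (limma adjusted p = 0.267), and 0.23 without SFR KO 1 (adjusted p = 0.0494). Otud3 stood at -0.34 ± 0.16 with overlapping groups (adjusted p = 0.352), on 141.8 ± 23.1 and 179.1 ± 17.7 normalized reads in SFR KO and wildtype libraries. Otud6b was at 0.02 ± 0.07.

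Among the USP genes none was called by limma or edgeR, and 7 of 43 tested had an unadjusted p under 0.05, all of them lower. Over all members that count was 10 of 55 (18.2%), 2 higher and 8 lower, against 16.1% of all tested genes (7.04% higher and 9.07% lower). DESeq2 called 4 of 52 members with an adjusted p (7.69%), Otud1 higher and 3 USP genes lower, against 4.53% of its genes (1.72% higher and 2.8% lower). The authors' deposited table has the same 4 genes under 0.05, beside 4.8% of its genes (1.79% higher and 3.01% lower). Limma with array weights, which count less variable libraries more, called the same 4, beside 4.65% of genes (2% higher and 2.65% lower). The median of the USP genes was -0.05, with 28 of 43 fitted values below 0, and it was -0.0091 without SFR KO 1. Over all members 33 of 55 (60%) were below 0, against 50.7% of all tested genes and 6042 of 11417 tested protein-coding genes. Groups did not overlap for 12 of the 55 members (21.8%), 2 higher and 10 lower, against 21.7% of all tested genes (9.78% higher and 11.9% lower). Over both directions the members' shares by non-overlap and by unadjusted p lay near those of all genes, which is no result about the members. Lower members were 18.2% by non-overlap, against 11.9% of all tested genes, and 14.5% by unadjusted p, against 9.07%. Of 11417 tested protein-coding genes, 1522 were lower and 1073 higher by non-overlap, and 1188 lower and 789 higher by unadjusted p. Higher members were 2 by each measure. Whether this split is particular to the members was not tested.

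Usp21 encodes a deubiquitinase of histones and of innate immune adaptors. It lies on the chromosome of the deletion (chr1:171281945-171287991, GRCm38, minus strand), 271.2 kb from the nearest end of the stretch that holds the 7 SLAM genes. It had 957.8, 863.8 and 927.2 normalized reads in SFR KO and 1132.5, 1099.6 and 1151.8 in wildtype libraries, with no overlap. The log2 difference was -0.30 ± 0.07, at an adjusted p = 0.0915 in limma, 0.097 in edgeR and 0.0292 in DESeq2. Limma called it without SFR KO 1 (adjusted p = 0.0379).

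Usp10, which stabilises p53 in the cytoplasm and binds the stress granule protein G3BP1, had 2860.5, 2953.8 and 3059.8 normalized reads in SFR KO and 3337.2, 3544.9 and 3517.4 in wildtype libraries. The groups stood apart, with a difference of -0.23 ± 0.05 on the log2 scale (limma adjusted p = 0.0925, DESeq2 adjusted p = 0.0174). Usp24, a large and abundant USP gene, had 7974.4, 7842 and 7949.6 normalized reads in SFR KO and 8967.3, 9631.5 and 8737.1 in wildtype libraries. Its SFR KO values were within 132.4 reads of each other, below all wildtype values, at -0.20 ± 0.05 (limma adjusted p = 0.114, DESeq2 adjusted p = 0.0182).

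The remaining USP genes with non-overlapping groups were lower but for 1. Usp19, which has a form anchored in the endoplasmic reticulum, stood at 4597 ± 226.4 normalized reads in SFR KO and 5216 ± 177.1 in wildtype libraries (log2 -0.18 ± 0.05, limma adjusted p = 0.155). Usp2, which is known for stabilising cyclin D1, was at -0.41 ± 0.14, the lowest of the 55 tested members, with 407.9, 317.5 and 394.3 normalized reads in SFR KO and 461.7, 580.6 and 445.9 in wildtype libraries. Its groups were 38 reads apart at the nearest pair and the difference missed the threshold (adjusted p = 0.2). Usp48 was at -0.14 ± 0.06 and Usp4 at -0.11 ± 0.05 (adjusted p = 0.28 and 0.303). The exception was Usp45, a DNA repair deubiquitinase, with 667.1, 653.6 and 673.4 normalized reads in SFR KO and 650.3, 589.8 and 589.1 in wildtype libraries. The Usp45 groups were 3.2 reads apart at the nearest pair. Its log2 difference was 0.13 ± 0.08 (adjusted p = 0.47), and -0.00 once the trend with GC content was removed.

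**Figure D2:**
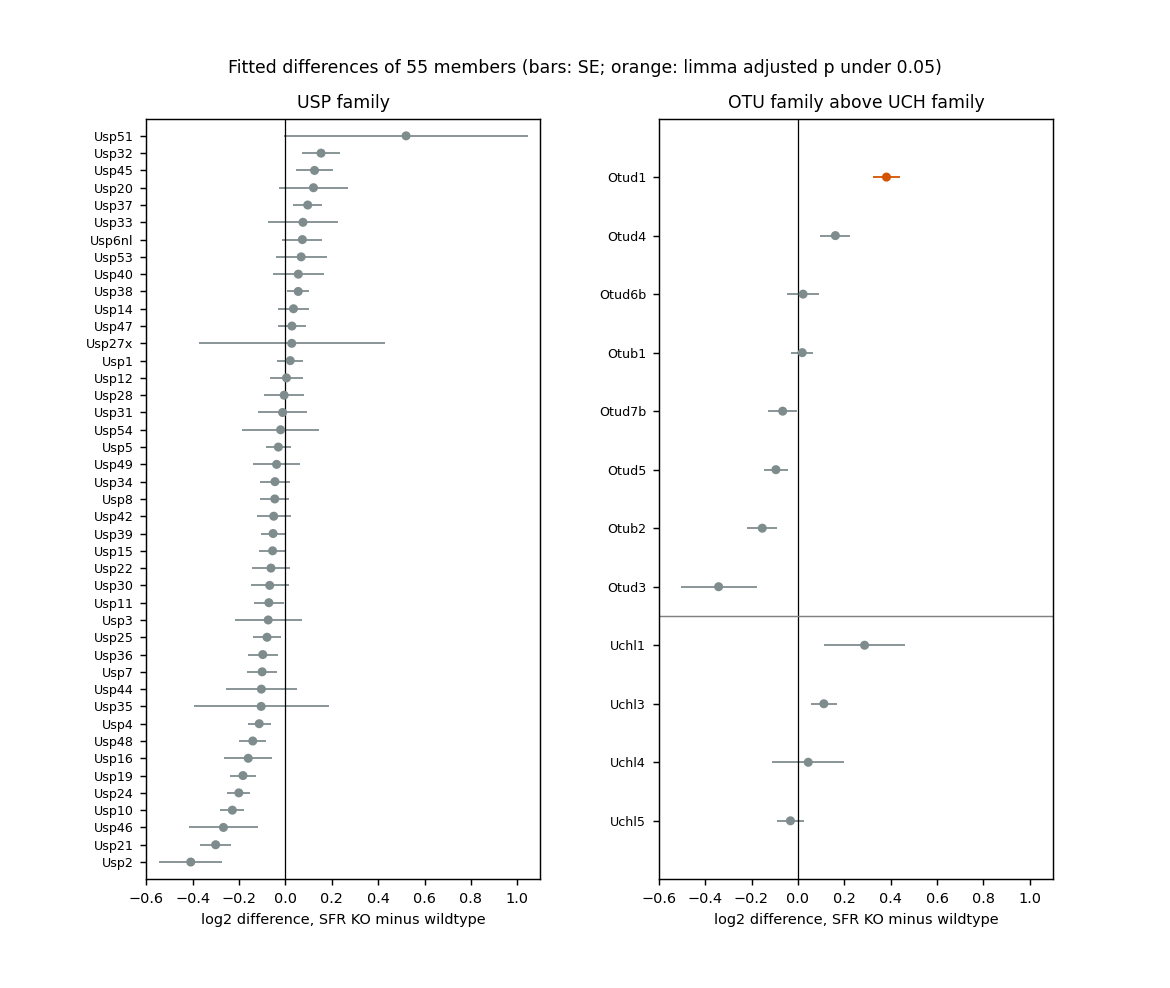
Fitted log2 difference (SFR KO minus wildtype) of the 55 tested members by family, with bars for the SE. Otud1 at 0.38 is the 1 member past limma's threshold, while Usp2 at -0.41 and the low-count Usp51 at 0.52 have wider bars.

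Of the best studied USP genes, most lay close to 0. Usp7 had 14613.7, 16274.2 and 16123 normalized reads in SFR KO and 16840.2, 17909 and 15661.2 in wildtype libraries, with overlapping groups and a log2 difference of -0.10 ± 0.06 (limma adjusted p = 0.487). Usp1 was at 0.02 ± 0.06, Usp5 at -0.03 ± 0.05 and Usp39 at -0.05 ± 0.05. Usp22, the deubiquitinase of the SAGA chromatin complex, was at -0.06 ± 0.08 with 1416 ± 120.0 and 1477 ± 102.7 normalized reads in SFR KO and wildtype libraries. Usp14, bound to the proteasome, was at 0.03 ± 0.07. Differences were small throughout: 48 of the 55 members (87.3%) had a fitted log2 difference within 0.25 of 0, against 75.5% of all tested genes and 80.4% of tested protein-coding genes. Members were also well expressed, with a median mean of 1770 normalized reads against 614.9 over all tested genes, and the part of depth in that share was not tested.

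Paralogous pairs were unequal in level. Usp12 and Usp46, close relatives activated by the same partner Wdr48, share 77.9% of 1098 aligned coding bases, and their per-kb ratio was 9.11 ± 1.68 in SFR KO and 7.5 ± 1.01 in wildtype libraries. Usp12 was at a log2 difference of 0.00 ± 0.07 and Usp46 at -0.27 ± 0.15 (adjusted p = 0.983 and 0.423), and the pair's ratio overlapped between genotypes, with all values between 6.36 and 10.3. Usp15 stood at 0.197 ± 0.0066 times the per-kb level of Usp4 in SFR KO and 0.189 ± 0.00966 times in wildtype libraries. Usp28 was at 0.398 ± 0.0306 and 0.38 ± 0.0557 times Usp25, and Usp33 at 21.1 ± 4.01 and 21.5 ± 1.24 times Usp20. Otub1 was at 1.91 ± 0.145 and 1.69 ± 0.0849 times Otub2. No stretch of 50 bases was shared between the transcripts with the longest coding sequence in any of these 5 pairs, which share between 65.7% and 77.9% of their aligned coding bases.

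Of the UCH genes with Uchl names, 4 of 4 were tested and none was called, with a median log2 difference of 0.08. With each library's GC trend removed the median turned to -0.05, with Uchl3 at -0.04, Uchl4 at -0.05, Uchl5 at -0.17 and Uchl1 at 0.34. Uchl3 and Uchl4 differ from the other pairs in that their coding sequences are nearly the same. They are shown by their first 90 coding bases from GENCODE M21 transcripts, in which capitals mark the 2 positions that differ.
Uchl3 (chromosome 14): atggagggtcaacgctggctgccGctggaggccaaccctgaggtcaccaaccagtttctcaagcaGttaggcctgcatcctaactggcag
Uchl4 (chromosome 9): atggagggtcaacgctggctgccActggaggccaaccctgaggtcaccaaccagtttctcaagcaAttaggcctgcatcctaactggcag

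Over the 693 aligned coding bases 675 were identical (97.4%), and 34.2% of all stretches of 50 bases in the Uchl3 transcript with the longest coding sequence, which is shorter than the transcript used for levels per kb, also occurred in that of Uchl4. Reads of such stretches cannot be placed, so the values of both genes are uncertain. Uchl3, which also acts on the ubiquitin-like NEDD8, had 5497.3, 5246.3 and 5140.8 normalized reads in SFR KO and 4814.4, 5210.6 and 4682.4 in wildtype libraries, with wildtype 2 inside the SFR KO range. Uchl4 had 150.8, 129.2 and 150.8 in SFR KO and 157.9, 131.3 and 129 in wildtype libraries. The log2 differences were 0.11 ± 0.06 and 0.04 ± 0.16 (limma adjusted p = 0.369 and 0.923). Uchl5 was at -0.03 ± 0.06 (adjusted p = 0.845).

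Uchl1 varied between libraries of each genotype. It had 407, 326.2 and 289.4 normalized reads in SFR KO and 218.3, 312.8 and 308.8 in wildtype libraries, so that SFR KO 1 was high, wildtype 1 low and the other 4 libraries close together. The log2 difference was 0.29 ± 0.17 (limma adjusted p = 0.462), and it was 0.15 without SFR KO 1 and 0.12 without wildtype 1. Its identity with Uchl3 was 64.9% over 655 aligned coding bases, with no shared stretch of 50 bases.

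**Figure D3:**
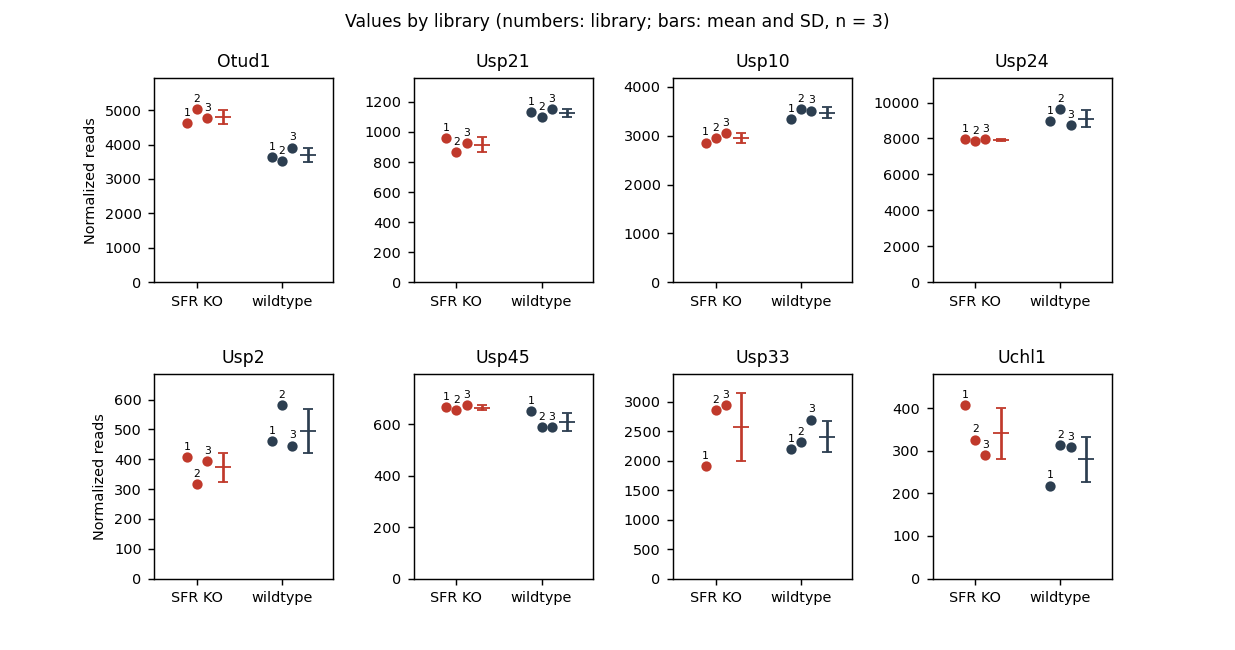
Normalized reads of 8 members by library (points numbered by library, SFR KO left of wildtype), with the mean and SD of each group (n = 3). Otud1 and Usp45 (by 3.2 reads at the nearest pair) are higher in all SFR KO libraries. Usp21, Usp10, Usp24 and Usp2 are lower in all of them, while Usp33 and Uchl1 overlap, with SFR KO 1 at 1907.6 and 407 reads.

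Variation within the SFR KO group was led by SFR KO 1. Usp33, a deubiquitinase of the VHL pathway and of the thyroid enzyme DIO2, had 1907.6, 2862.9 and 2939 normalized reads in SFR KO and 2196.3, 2313 and 2698.7 in wildtype libraries, with SFR KO 1 lowest and the other SFR KO libraries highest of the 6. Its coefficient of variation was 22.4% in SFR KO and 10.9% in wildtype libraries, in each group the highest among the 37 members whose mean reached 1000. Usp6nl showed the same order in SFR KO libraries, with 4806.5, 5747.7 and 6221.6 normalized reads, against 5091.3 to 5473.6 in wildtype libraries. Usp3, a deubiquitinase of histones, showed the opposite one, with 862.2, 649.2 and 602.2 against 636.8 to 835.2. Both are named after their values were seen. SFR KO 1 was the lowest of the 6 libraries for 25 of 55 members (45.5%), against 22.4% of all tested genes, and its median log2 deviation from the wildtype mean was -0.09, against -0.01 in SFR KO 2 and -0.03 in SFR KO 3. In the fit without SFR KO 1 the members' median log2 difference was -0.0091, against -0.038 with all 6 libraries. The USP median was -0.0091, against -0.046. Limma then called 3 of 55 members (Otud1 and Otud4 higher, Usp21 lower) and 3.54% of all genes (1.58% higher and 1.96% lower). A count of calls does not give the part of that library in the differences, which was not tested.

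**Figure D4:**
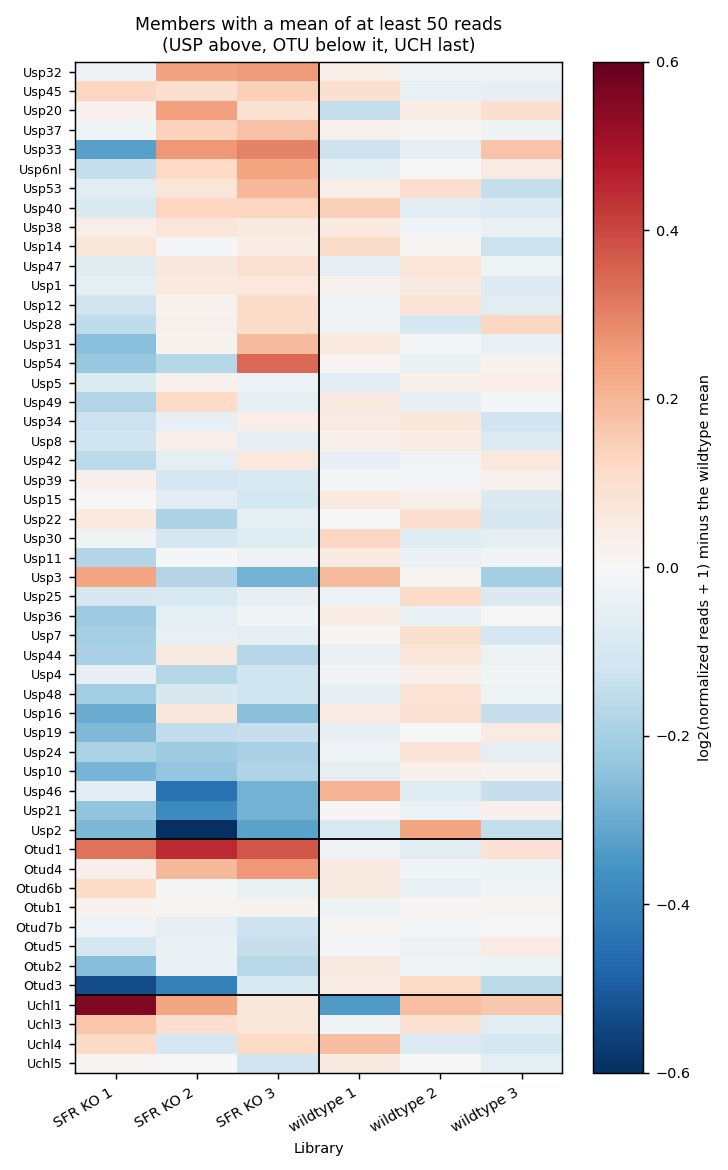
Deviation of each library from the wildtype mean, log2(normalized reads + 1), for members whose mean reached 50 normalized reads, ordered within families by the fitted difference; SFR KO libraries stand left of wildtype libraries. Otud1 is raised in all 3 SFR KO libraries, and SFR KO 1 departs from SFR KO 2 and 3 for Usp33, Usp3 and Uchl1.

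Differences moved with base composition. Members with a higher GC content in the longest transcript tended to lower differences (Spearman's rho -0.353 across 55 genes, a description, since genes of the same libraries are not independent), and across 11399 tested protein-coding genes rho was -0.302. The 27 members below the median GC content had a median log2 difference of 0.02 and the other 28 a median of -0.07. With each library's trend removed these medians were -0.04 and -0.05, and rho over the members was 0.0446. Otud1 had a GC content of 55.2%, on the side where differences ran lower, and its log2 difference was 0.43 ± 0.06 after removal (limma adjusted p = 0.0255), the 1 member then called, beside 0.155% of 13539 genes (0.0517% higher and 0.103% lower). Usp21 (57.8% GC) was then at -0.25 ± 0.07, Usp10 (54.2%) at -0.19 ± 0.05 and Usp24 (47.3%) at -0.22 ± 0.05 (adjusted p = 0.163, 0.178 and 0.122).

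**Figure D5:**
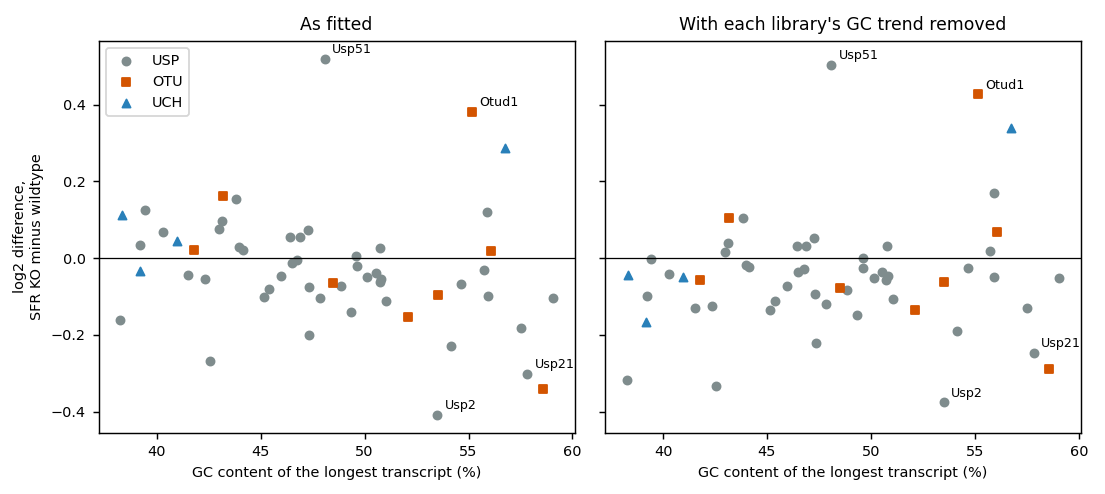
Log2 difference (SFR KO minus wildtype) of 55 members against the GC content of the longest transcript, as fitted (left) and with each library's GC trend removed (right). The slope seen on the left (rho -0.353) is gone on the right (0.0446), and Otud1 stays high at 0.38 and 0.43.

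Some values rest on reads that could belong to a neighbour. Whether counting used strand is not known here, and 12 tested members, all USP genes, share exonic bases with an expressed gene on the opposite strand (mean of 10 normalized reads or more), so their values are uncertain. The partner was the higher of the pair for Usp16, whose neighbour Cct8 had a mean of 11620 normalized reads against 1396, for Usp40 beside Dgkd (8959 against 398.8), for Usp37 beside Cnot9 (3795 against 2607), for Usp45 beside Tstd3 (704.1 against 637.2) and for Usp54 beside 2810402E24Rik (231.7 against 194.1). Usp14, Usp15 and Usp33 are among the 12, and Otud1, Usp21, Usp10 and Usp24 are not. On the same strand, Usp49 shares 4392 exonic bases with Gm20517, Usp10 shares 99 with Gm20388 and Usp15 shares 96 with Gm27920. These partners had means of 8.74, 0 and 0 normalized reads. Reads of bases shared on the same strand may not be assigned to either gene, so these members' values are uncertain too.

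Limma called none of the listed genes of deubiquitinase families outside these name patterns. The other tests were not looked up for these genes. Membership of such a family does not show that a gene's product removes ubiquitin. Of 29 listed genes, which include Cyld, Tnfaip3, Bap1, the Josephin, MINDY and JAMM families and the proteasome's Psmd14, 28 were tested, with a median log2 difference of 0.02 and 4 with an unadjusted p under 0.05, against 16.1% of all tested genes. Josd1, a Josephin deubiquitinase, had 1389.3, 1349.9 and 1360.8 normalized reads in SFR KO and 1718.8, 1722.2 and 1621.1 in wildtype libraries. Its groups stood well apart, at -0.30 ± 0.06, and missed the threshold narrowly (limma adjusted p = 0.0555). Zup1, which cleaves long ubiquitin chains at sites of DNA damage, had 957.8, 975.5 and 865.4 normalized reads in SFR KO and 761.8, 799 and 673.4 in wildtype libraries (0.33 ± 0.09, adjusted p = 0.129). Tnfaip3, the NF-kB inhibitor A20, was at 0.02 ± 0.06, Cyld at 0.09 ± 0.05 and Bap1 at -0.06 ± 0.05. Of 17 partner and ubiquitin genes, all tested by limma alone, none was called. Among them 2 had an unadjusted p under 0.05 (again against 16.1%) and all lay within 0.25 of 0. Wdr48, the activator of Usp1, Usp12 and Usp46, was at -0.06 ± 0.05, the Usp22 partners Atxn7l3 and Eny2 at -0.15 ± 0.07 and 0.14 ± 0.06, and the polyubiquitin gene Ubb at 0.13 ± 0.06 (adjusted p = 0.593, 0.335, 0.31 and 0.302).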

How the data were processed

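RNA-seq of 3 SFR KO and 3 wildtype libraries was used, grouped by the genotype in the labels and numbered in accession order. The submitters' processing notes name GRCm38, featureCounts 1.5, STAR 2.5 and DESeq2 1.14.1; annotation release, filters and strand setting are not stated in them. The authors deposited reads per gene divided by a size factor, a signal per library with its mean. Beside these the authors' table gives the log2 fold change (SFR KO over wildtype) and its SE, a statistic (score) and p-values, raw and adjusted. Each library's values were whole multiples of its smallest value (100% within 1e-06), so whole reads were recovered.

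The main test was limma 3.58.1 (R 4.3.3; trend, two-sided) on log2(normalized reads + 1) for the genes whose mean reached 10, a scale that understates changes of low genes. Benjamini-Hochberg adjusted p-values under 0.05 over 13562 genes were called. Alternatives were other pseudocounts (0.5, 5), minimum means (50, none) and scalings (library total, TMM), DESeq2 1.42.0 and edgeR 4.0.16 (its quasi-likelihood test) on recovered reads, a robust prior, array weights, removal of GC trends (natural spline, 4 degrees of freedom) and each library left out. Scripts were tested on simulated counts.

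Positions, transcript length and GC content came from GENCODE M21 (GRCm38), which matched all 67 members, and coding sequences were aligned with Biopython 1.88. The members' rule reads names alone, but it and the lists were chosen with earlier results of these data known. Text names follow a rule: called members; up to 8 higher and 8 lower whose groups did not overlap (minimum mean 50); the highest per kb in each family; Usp21; listed members with known roles; and paralogous pairs. Usp51, the members beside expressed neighbours and those too low to test are named outside it, after their values were seen. Read intervals and floors cover counting error only.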

Additional observations from a re-analysis of the deposited data

How the results depend on the processing

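No paired analysis was possible because the labels give the libraries no shared replicate numbers. The call of Otud1 held in 12 of 17 alternatives, all but the 5 fits named in the text that leave out 1 library other than SFR KO 1. The fit without SFR KO 1 also has 1 library fewer, and it kept the call (limma adjusted p = 0.00896). The members' median log2 difference (-0.038) moved by less than the spread between libraries (0.0335). It was -0.0091 without SFR KO 1 and -0.013 without wildtype 1. The USP median was -0.046, and -0.0091 without SFR KO 1. After removal of GC trends the UCH median was -0.047 and the OTU median -0.059, and without SFR KO 1 the OTU median was -0.056. Members called were 4 with DESeq2, 4 with array weights (Otud1, Usp21, Usp10 and Usp24 in both) and 0 to 3 with 1 library left out. Genes called in all were 98 with a minimum mean of 50, 129 with no filter, 30 with edgeR, 483 with DESeq2, 161 with a robust prior, 630 with array weights, 21 after removal of GC trends and 11 to 480 with 1 library left out. Reversals of sign concerned members that were not called, among them Usp45 and Uchl3, reported at 0.13 and 0.11. With GC trends removed the log2 difference was -0.044 for Uchl3, -0.050 for Uchl4, -0.023 for Usp1, 0.018 for Usp5, -0.099 for Usp14, -0.00078 for Usp12, -0.0029 for Usp45, -0.057 for Otud6b. With TMM scaling the log2 difference was 0.0012 for Usp28. With array weights the log2 difference was -0.014 for Uchl4, 0.029 for Usp28. With edgeR the log2 difference was 0.0021 for Usp28. With 1 library left out it ranged from -0.026 to 0.057 for Otud6b, from -0.0080 to 0.137 for Uchl4, from -0.059 to 0.011 for Uchl5, from -0.018 to 0.060 for Usp1, from -0.048 to 0.066 for Usp12, from -0.029 to 0.090 for Usp14, from -0.063 to 0.068 for Usp28, from -0.228 to 0.030 for Usp3, from -0.034 to 0.277 for Usp33, from -0.0079 to 0.178 for Usp6nl. The cause of these changes was not tested.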
